A study of Rattus norvegicus with 36 samples.

Results

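The 1182 regions described here are stretches of the rat genome whose DNA methylation was listed at 2 separate moments of male germ cell development, once between fetal gonocytes of gestational day 20 (GD20) and spermatogonia of postnatal day 5 (PND5), and once between spermatids of the ranges labelled R1-8 and R9-12. They allow the level in PND5 spermatogonia to be set beside the level in R1-8 spermatids, 2 stages that the authors did not compare with each other. The regions were chosen by measured values: a region belongs here where the same chromosome, start and end stand in both lists. They are 1182 of the 60036 distinct regions of the 7 deposited lists, 2.53% of the 46665 regions listed from GD20 to PND5 and 31.8% of the 3722 listed from R1-8 to R9-12.

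The study profiled methylation by capture and sequencing in 36 samples of male rat germ cells at 9 stages, 4 samples to a stage. All were untreated Sprague-Dawley rats of the GFP-GCS genotype, a transgene that gives germ cells a green fluorescent protein by which they were sorted. The 8 samples of the stages set side by side here were 4 of PND5 spermatogonia and 4 of R1-8 spermatids, for which the labels give no age, and the labels do not say whether each sample is 1 animal or a pool. The deposited lists give 1 mean level per stage and no level per sample, no read depth and no expression, so no spread, no interval and no test can be attached to a difference, and the sorted cells could not be checked against the markers of their type. Differences are given in percentage points of stage means, R1-8 minus PND5, and are described without a test. A mean level does not tell a mark carried by part of the cells from a mark carried in part by every cell.

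Methylation of cytosine in CpG pairs is erased from the germ line in the embryo and written anew in the male by the de novo methyltransferases while gonocytes rest before and around birth. The gonocytes then become spermatogonia, which divide, enter meiosis and give haploid round spermatids. In these cells the maintenance methyltransferase copies the pattern at each division, so that the level of a CpG in a spermatid reflects what was written, copied or removed since the neonatal testis.

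Promoter sequences are shown for 4 genes whose promoter regions had the highest and the lowest differences among those with a window: Slc27a4, a fatty acid transport protein, and Fermt1, an integrin-binding adaptor of epithelial adhesion, whose promoter regions stood 24.2 and 24.5 points higher at R1-8, and Elavl4, a neuronal RNA-binding protein, and Asb18, an ankyrin repeat protein with a SOCS box, whose differences were -8.3 and -7.0 points. Each window runs from 250 bases before to 50 after the gene's start in RefSeq (assembly GRCr8), is written 5′ to 3′ on the gene's strand, and has its CpG pairs in capitals. No source used here gives the lists' genome build, so whether a listed region lies inside its window was not determined. The Slc27a4 window (chr3:33472653-33472952, plus strand) holds 15 CpGs and the Fermt1 window (chr3:140666370-140666669, minus strand) holds 2, while the Elavl4 window (chr5:130367614-130367913, minus strand) holds 7 and the Asb18 window (chr9:98043421-98043720, minus strand) holds 8.
Slc27a4: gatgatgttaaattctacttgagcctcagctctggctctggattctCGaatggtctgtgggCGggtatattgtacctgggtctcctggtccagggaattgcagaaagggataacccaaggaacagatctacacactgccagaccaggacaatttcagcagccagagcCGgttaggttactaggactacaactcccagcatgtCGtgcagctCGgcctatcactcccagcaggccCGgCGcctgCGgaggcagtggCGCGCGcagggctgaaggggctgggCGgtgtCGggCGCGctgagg
Fermt1: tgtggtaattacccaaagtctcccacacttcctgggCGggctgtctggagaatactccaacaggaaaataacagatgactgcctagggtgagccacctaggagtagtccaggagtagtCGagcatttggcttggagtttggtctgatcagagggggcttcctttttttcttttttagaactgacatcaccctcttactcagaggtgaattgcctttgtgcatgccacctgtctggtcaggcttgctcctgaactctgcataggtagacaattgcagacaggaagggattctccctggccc
Elavl4: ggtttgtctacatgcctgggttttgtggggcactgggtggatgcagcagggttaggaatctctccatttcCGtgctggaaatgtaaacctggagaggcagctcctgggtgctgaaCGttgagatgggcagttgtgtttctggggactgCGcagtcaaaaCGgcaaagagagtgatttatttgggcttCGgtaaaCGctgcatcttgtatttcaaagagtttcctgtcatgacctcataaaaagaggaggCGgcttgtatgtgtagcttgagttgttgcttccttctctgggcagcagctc
Asb18: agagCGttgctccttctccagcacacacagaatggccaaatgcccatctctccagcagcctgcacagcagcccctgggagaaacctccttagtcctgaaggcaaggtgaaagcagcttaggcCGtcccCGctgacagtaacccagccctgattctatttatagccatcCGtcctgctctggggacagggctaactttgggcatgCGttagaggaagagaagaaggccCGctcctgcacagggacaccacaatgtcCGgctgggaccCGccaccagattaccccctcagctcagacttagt

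Of the 31 named genes with a promoter region among the members, 25 had such a window of 300 bases. These windows held a median of 5 CpGs, against 7 over all 27457 promoter windows, and 10 or more CpGs stood in 4 of them (16%) against 44.1% of all. The window of Nfia, a transcription factor gene of the nuclear factor I family, held 38 CpGs and had the most of the 25. The motifs were looked for on both strands, and none of them contains another. The cyclic AMP response element TGACGTCA was in 0 of 25 windows and in 1.91% of all. The E-box CACGTG was in 1 of 25, that of the bile acid transporter family gene Slc10a6, and in 6.65% of all. The GC box GGGCGG was in 5 of 25 (20%) and in 34.9% of all promoters. The 5 were those of Fermt1, Slc27a4, Nfia, Ssc5d and Vwa7. Their regions differed by 24.5, 24.2, 2.2, 2.2 and -0.8 points, and a link of motif and level was not tested.

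Most of the shared regions had in R1-8 spermatids nearly the level that they had in PND5 spermatogonia. The cells between these stages were not sampled. The median level was 89.7% at PND5 (quartiles 69.1 and 95.9) and 91.8% at R1-8 (quartiles 67.8 and 96.9), and the median difference was 0.55 points (quartiles -4.8 and 4.2). In 858 regions, 72.6% of the members, the levels lay less than 10 points apart. Of these, 710 were among the 843 members that lost to R9-12, and 148 among the 339 that gained. The median difference was 1.7 points in the 843 and -10.0 points in the 339, so the mix of both shapes this result. At R1-8, 196 regions were lower by at least 10 points (16.6%), 45 of them by at least 30 points (3.81%). Another 128 were higher by at least 10 points (10.8%), 15 of them by at least 30 points (1.27%). The 30 points are the smallest difference that the GD20 to PND5 list holds, and 10 points the smallest of the spermatid list. In both directions the larger differences were the rarer ones. Among the differences of 30 points 45 regions were lower and 15 higher, although 630 regions were higher by any amount and 542 lower. A region above 70% at PND5 has no room to rise by 30 points, whereas all had room to fall. The 288 regions between 70% and 90% at PND5 gave 16 of the 45, and the 581 at 90% or more gave 11. Between 50% and 70% 13 regions were lower by at least 30 points, and between 30% and 50% 5 were.

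**Figure D1:**
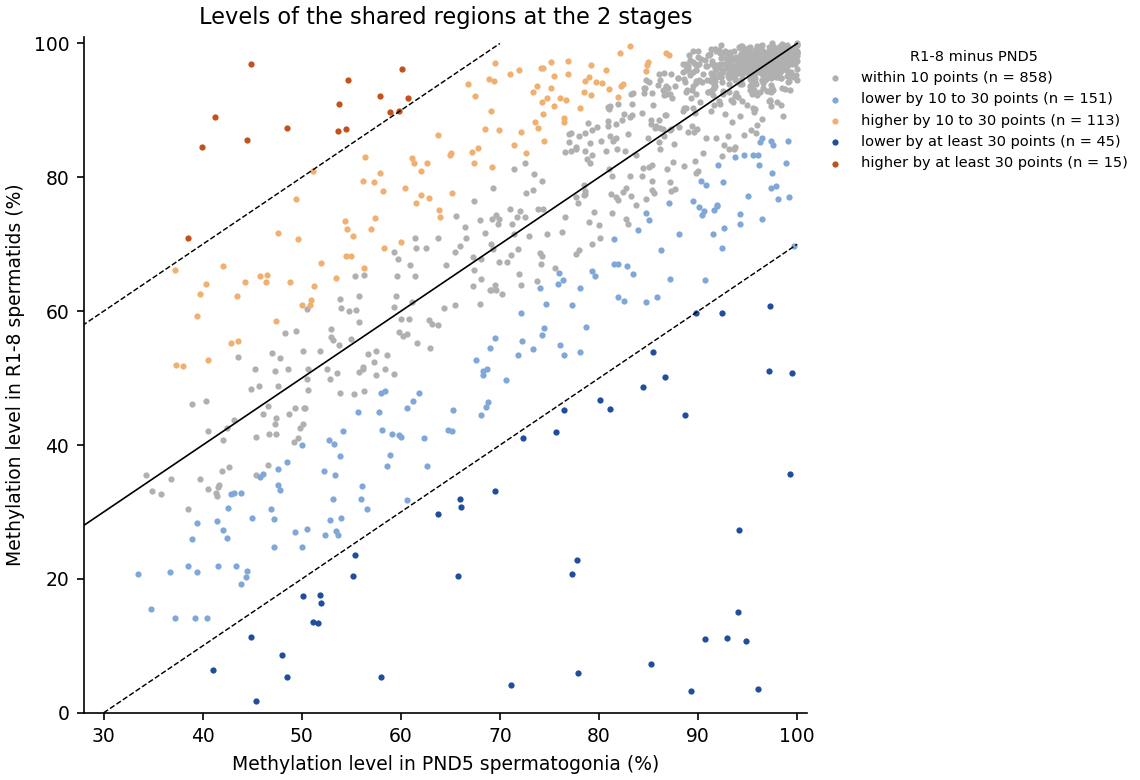
Methylation level of each of the 1182 shared regions in PND5 spermatogonia (x axis, %) and in R1-8 spermatids (y axis, %), 1 point per region, coloured by the size of the difference. The solid line marks equal levels and the dashed lines 30 points above and below it, with 45 regions below the lower one, 20 of which have less than 20% at R1-8.

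All 1182 regions gained methylation from GD20 to PND5, as did 45479 of the 45483 other regions of that list, so the gain came with the choice. They then parted: 843 lost methylation from R1-8 to R9-12 and 339 gained it. In the authors' deposited table the adjusted p-values of the members were at most 0.0317 at the first step, with a median of 1.58e-10, and at most 0.05 at the second, with a median of 0.0045. Against the other regions of their lists the members stood apart in level. Their median at PND5 was 89.7%, against 96.6% in the 45483 other regions of the GD20 to PND5 list. In the spermatid list their quartiles at R1-8 were 67.8% and 96.9%, against 5.0% and 23.6% in the 2540 other regions, of which 84.5% gained to R9-12. Each member had gained at least 30 points by PND5, so regions low at every stage could only be among the others. This contrast is therefore not independent of the choice.

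How closely the level was kept followed the level at PND5. Of the 581 regions with 90% or more at PND5, 92.1% lay within 10 points at R1-8, where the median was 96.8%, and none was higher by 10 points, for which they had no room. In the 288 regions between 70% and 90% at PND5 the share within 10 points was 66.0%, in the 205 between 50% and 70% it was 43.4%, and in the 108 between 30% and 50% it was 40.7%. Their R1-8 medians were 85.4%, 60.5% and 40.6%, so that the order of the bands was the same at both stages. Over the 1182 regions the levels had a Pearson correlation of 0.786 and a Spearman correlation of 0.794, a description across regions that share their libraries. Both levels took part in the choice of members, so neither the correlations nor the order of the bands is independent of it.

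**Figure D2:**
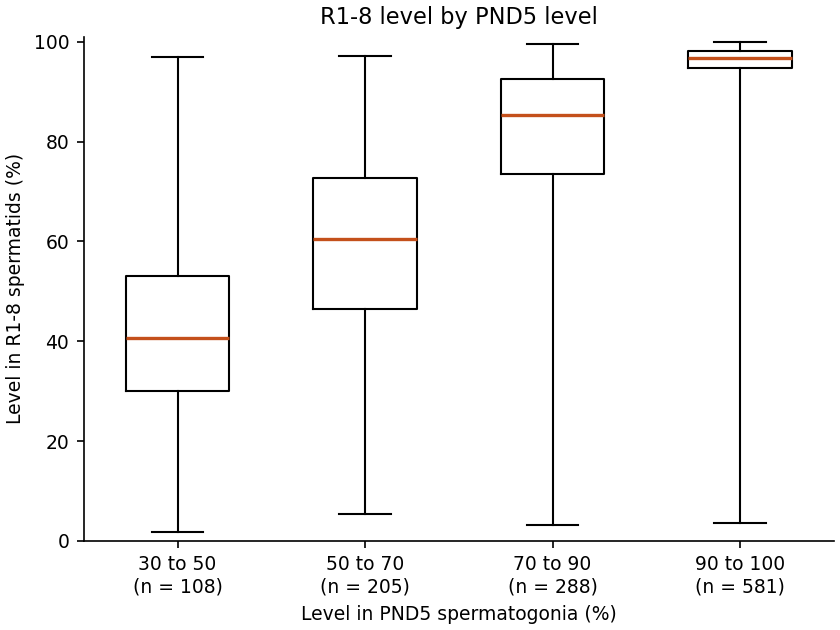
Level at R1-8 (y axis, %) of the regions in 4 bands of their PND5 level (x axis, %); boxes span the quartiles, the coloured line is the median and the whiskers reach the lowest and the highest region. The box of the 581 regions at 90% or more lies between 94.7% and 98.1%, while its lowest region reaches 3.5%.

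The 45 regions that were at least 30 points lower at R1-8 had a median of 77.3% at PND5, 20.7% at R1-8 and 36.1% at R9-12. At R1-8, 20 of them had less than 20%. In 19 of the 45 the R1-8 level was below even that of the GD20 gonocytes. No other member could be, since each stood at least 30 points higher at PND5 than at GD20. Among the 14 that were lower by at least 50 points, 12 were below their GD20 level, and the median of R1-8 minus GD20 over the 14 was -28.2 points. From R1-8 to R9-12, 41 of the 45 gained and 4 lost, while among the 858 regions within 10 points 148 gained and 710 lost. The R1-8 level enters both differences, and each member had to move by 10 points at that step, so a low R1-8 level leaves little room for a loss and this contrast is not independent of the choice. Of the 45, 41 were nearer to their PND5 level at R9-12 than at R1-8, but only 3 came within 10 points of it.

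The region lowest against PND5 lay outside annotated genes at chr10:92785069-92785156 in the lists' coordinates, with 5 CpGs. It had 0.0% at GD20, 96.0% at PND5, 3.5% at R1-8, 18.7% at R9-12 and 0.1% at R13-14, a stage for which only some members have a level. Its PND5 level thus stood alone against the low levels before and after it. An intergenic region of 7 CpGs at chr4:175053540-175053992 had 94.0% at PND5 and 15.1% at R1-8, whereas a member 2460 bases away kept its level, with 95.7% and 96.3%.

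Among regions in named genes the lowest difference was in Syn3, the gene of synapsin III, a protein of synaptic vesicles. Its intron 5 region of 6 CpGs (chr7:23597026-23597286) had 32.6% at GD20, 89.3% at PND5, 3.2% at R1-8 and 14.0% at R9-12, a difference of -86.1 points. The Syn3 gene encloses Timp3, an inhibitor of metalloproteinases that is transcribed from within the same locus, and a member in intron 1 of Timp3, 4335 bases away, had 79.3% at PND5 and 83.4% at R1-8. A further region of 8 CpGs in intron 5 of Syn3 ran the other way, with 43.5% at PND5 and 62.3% at R1-8. Within the 1 locus, then, 1 region was lower, 1 higher and 1 within 10 points.

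Hs6st3, a heparan sulfate 6-O-sulfotransferase, had a region of 6 CpGs in intron 1 that stood at 46.0% at GD20, 90.7% at PND5, 11% at R1-8 and 34.2% at R9-12. A longer region of 15 CpGs in the same intron kept its level, with 79.1% at PND5 and 82.2% at R1-8. Peli2, an E3 ubiquitin ligase of innate immune signalling, had 71.1% at PND5, 4.2% at R1-8, 16.3% at R9-12 and 1.3% at R13-14 in intron 1. Ptpn13, a non-receptor tyrosine phosphatase, had 94.1% at PND5, 27.3% at R1-8, 43.8% at R9-12 and 13.1% at R13-14 in intron 10. Slc38a1, a neutral amino acid transporter of glutamine, had 99.3% at PND5, 35.7% at R1-8, 50.9% at R9-12 and 33.3% at R13-14 at its transcription end. In these genes the level at R9-12 stood between those of R1-8 and PND5, and where R13-14 had a level it was below that of R1-8.

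The next genes in order had differences from -46.1 to -43.6 points. Rpl37l1, a gene like that of ribosomal protein L37, had 97.2% at PND5, 51.1% at R1-8 and 83.6% at R9-12 in its single exon; ribosomal protein genes have many near-identical copies that can share reads, so its level is uncertain. F11r, a junctional adhesion molecule, had 65.8% at PND5 and 20.4% at R1-8, and Timd2, a T cell immunoglobulin and mucin domain protein, had 45.4% and 1.8%, each in intron 1. Ccdc80, a protein of the extracellular matrix, had 88.7% at PND5, 44.5% at R1-8 and 29.0% at R9-12 in intron 1. It was 1 of the 4 regions of the low class that lost further to R9-12.

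**Figure D3:**
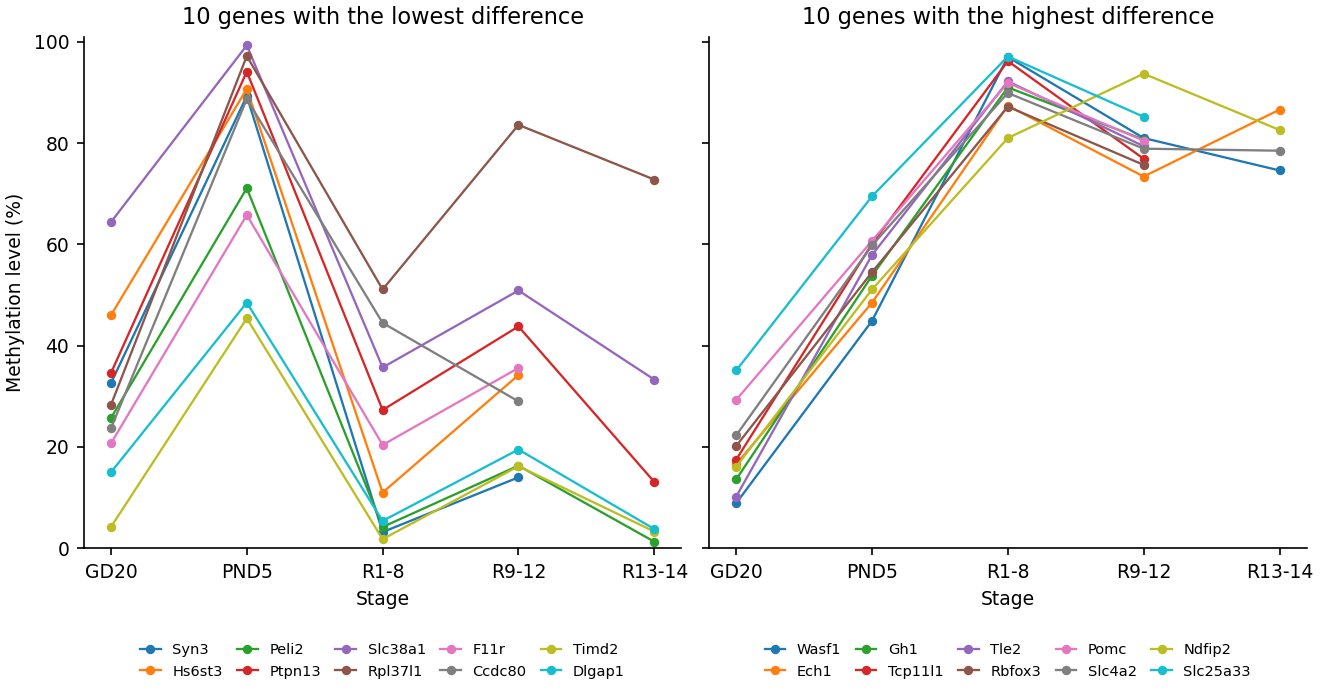
Methylation level (y axis, %) by stage (x axis) for 1 region of each of the 10 genes with the lowest (left) and the 10 with the highest (right) R1-8 minus PND5 difference; lines join stage means and end where the region is not listed. On the left every line peaks at PND5 and drops to R1-8, as for Syn3 from 89.3% to 3.2%, and on the right every line climbs from PND5 to R1-8, as for Wasf1 from 44.9% to 97.0%; both patterns follow from how the genes were picked.

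Genes of the synapse made up 12 of the 416 named member genes, with 15 regions, and 5 of the 12 had a region lower by at least 30 points, against 18 of all 416 (4.33%). The list and the members were chosen with results in view, and no test of the list was made. Besides Syn3 these were scaffolds of the postsynaptic density. Dlgap1, which links the postsynaptic guanylate kinases to other scaffolds, had 48.5% at PND5 and 5.4% at R1-8 in intron 1, with 15% at GD20, 19.5% at R9-12 and 3.8% at R13-14. Its region in intron 5 had 98.1% at PND5, 76.7% at R1-8 and 66.0% at R9-12, so both Dlgap1 regions were lower.

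Dlgap2, of the same family, also had a pair of lower regions in intron 1, at 75.7% and 94.2% at PND5 and at 41.9% and 74.5% at R1-8. Shank3, which binds the Dlgap proteins, had 69.5% at PND5, 33.1% at R1-8, 48.2% at R9-12 and 27.3% at R13-14 in intron 18. Homer2, which ties Shank proteins to metabotropic glutamate receptors, had 80.1%, 46.8%, 62.0% and 33.3% at those stages in intron 1. The glutamate receptor genes themselves lay within 10 points: Grik3 was fully methylated at PND5 and had 99.7% at R1-8, Grm4 had 87.3% and 87.2%, and Grik4 had 74.3% and 75.3%. The others, Rims1 and Cntnap4 and Dlgap4 and Nrxn3, were within 10 points too, and the median difference over the 15 regions was -6.4 points, against 0.8 over the 460 regions of named genes.

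Axon guidance genes gave 7 members with 9 regions, of which 1 gene had a region lower by at least 30 points and 2 by at least 10, against 4.33% and 14.4% of all named genes. Robo1, a receptor of Slit proteins, held 3 regions. The one in intron 3 had 13.7% at GD20, 84.4% at PND5, 48.7% at R1-8, 73.9% at R9-12, 43.7% at R13-14 and 69.2% at R15-17, going up and down at every step. Those in introns 1 and 25 had 83.1% and 77.7% at PND5 and 89.0% and 84.2% at R1-8, so they were close at both stages. Nrp1, a receptor of semaphorins, had 60.6% at PND5 and 45.5% at R1-8 at its transcription end. The netrin Ntn4, the ephrin receptor Ephb1, the ephrin Efna5 and the semaphorins Sema4g and Sema5a all lay between 94.2% and 99.4% at both stages, and their differences ran from -1.5 to 1.7 points.

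**Figure D4:**
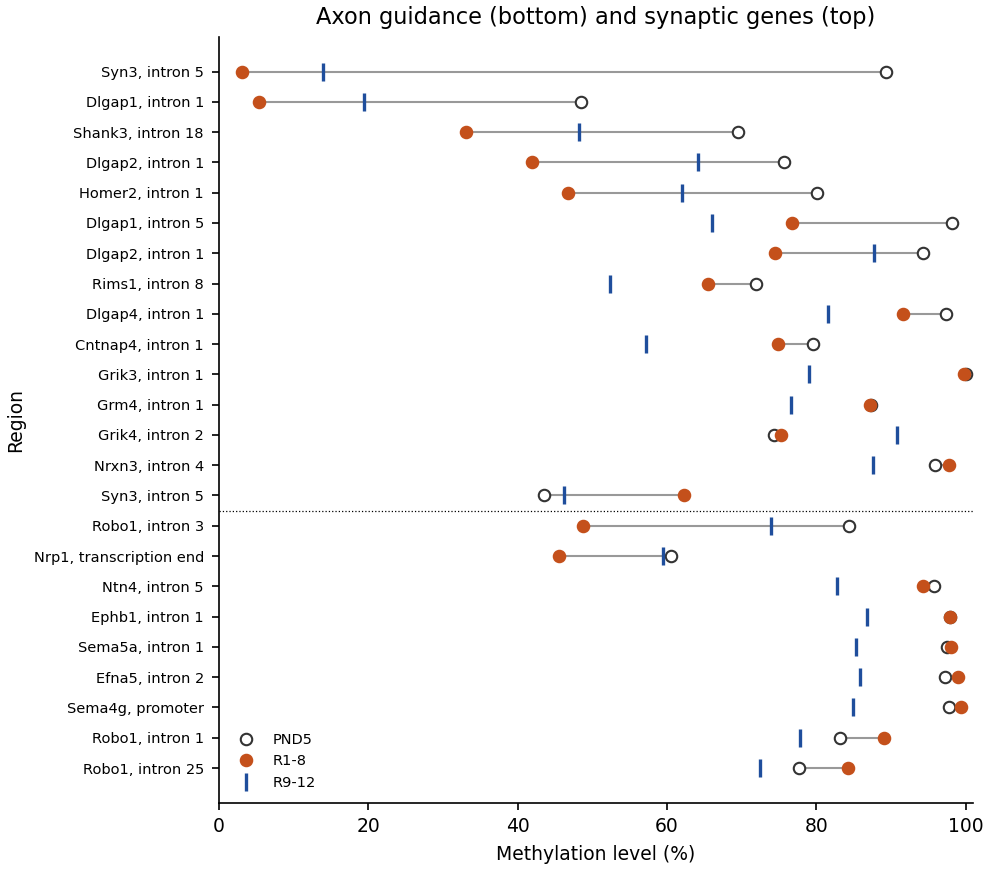
Level (x axis, %) of each member region of the axon guidance list (below the dotted line) and the synaptic list (above it) at PND5 (open circles), R1-8 (filled circles) and R9-12 (bars), 1 row per region; where levels are equal, the filled circle covers the open one. Syn3, Dlgap1, Shank3, Robo1 in intron 3, Dlgap2 and Homer2 show the widest gaps, from -86.1 to -33.3 points, and the other Syn3 region and the regions of Robo1 in introns 1 and 25 lie higher at R1-8.

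Developmental transcription factors gave 10 genes with 11 regions. Of these, 3 had a region lower by at least 10 points, where 14.4% of all named genes did, and none was higher by 10 points. Runx2, which directs bone formation, had 62.3% at PND5 and 41.1% at R1-8 in intron 2, a difference of -21.2 points, and gained 18.9 points to R9-12. Foxp2, known for its role in neural circuits of vocal learning, had 53.9%, 38.4% and 52.6% in intron 10, and Sox5, a regulator of cartilage and neurons, had 79.3%, 66.0% and 83.7% in intron 6. In these genes the level at R9-12 was back within 10 points of that at PND5. The same held for 110 of all 151 members lower by 10 to 30 points. Each member had to move by at least 10 points at that step, so such a return is not independent of the choice. Tbx3 and Foxo3 had regions with differences of -9.4 and -8.8 points, and Pax2, Foxk1, Tbx18 and Emx2 were among the other genes within 10 points.

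Solute carriers, with 14 genes and 14 regions, held members in both directions. Slc38a1 and Slc15a5, a gene of the peptide transporter family with 81.1% at PND5 and 45.4% at R1-8, were the 2 of 14 genes lower by at least 30 points, beside 4.33% of all named genes. Slc4a2, an anion exchanger, had 59.8% and 89.9% in intron 1, and Slc25a33, a mitochondrial carrier of pyrimidine nucleotides, had 69.5% and 97.1% in intron 1. Slc27a4 had 71.9% and 96.1% in its promoter, and Slco1c1, a carrier of thyroid hormone, had 47.6% and 71.7% in exon 14. The remaining 8 were within 10 points, so 4 of 14 genes were higher by at least 10 points, beside 11.1% of all named genes.

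Potassium and calcium channel genes gave 5 members. The 2-pore potassium channels Kcnk3 and Kcnk9 were higher at R1-8, with 39.4% and 59.3% for Kcnk3 in intron 1 and 47.4% and 58.6% for Kcnk9 at its transcription end. Cacnb2, a beta subunit of calcium channels, had a region of 21 CpGs in its 5' UTR that lay within 10 points, with 55.8% and 58.4%, and 733 bases on a region of 5 CpGs in intron 1 with 81.5% at PND5, 67.0% at R1-8 and 44.0% at R9-12. Kcnh2 and Kcnip1 were within 10 points. Among the 4 genes of the cadherin list, Pcdhga9 had 50.0% and 61.0% and Pcdhga3 had 41.9% and 36.1%, each in exon 1; the variable exons of this protocadherin cluster resemble one another and may share reads. Dchs1 and Celsr3 lay above 90% at both stages.

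Of the genes with a known part in germ cells, 3 of 46 on the spermatogonial list, 1 of 53 on the meiosis list, 2 of 53 on the spermatid list and 1 of 63 on the axoneme list were members. The share of members among all annotated genes is not given here, so nothing is read from these counts. Tfap2c, a transcription factor of germ cell specification, had 97.1% at PND5 and 97.4% at R1-8, Prdm1, which represses the somatic programme in primordial germ cells of the mouse, had 92.4% and 94.3%, and Rara, the retinoic acid receptor that acts in spermatogonial differentiation, had 95.3% and 96.2%. At R9-12, the step that the rule used, they had 80.3%, 77.7% and 85.4%. Syce3, a protein of the synaptonemal complex, was the 1 meiotic gene, with 79.7% at PND5 and 94.2% at R1-8 at its transcription end. Spag6, a protein of the central apparatus of the sperm tail, had 54.0%, 60.5%, 80.1% and 48.8% at PND5, R1-8, R9-12 and R13-14 in exon 8. Chd5, a chromatin remodeller needed for the histone to protamine exchange in mouse spermatids, had 97.0% and 97.3%, and Ccdc65, a protein of the axonemal dynein regulatory complex, had 84.5% and 93.3%.

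None of the 28 imprinted genes, 26 piRNA pathway genes, 28 genes of DNA methylation and its removal, 23 Sertoli cell markers and 16 markers of Leydig and peritubular cells on the lists used was among the members, and with lists this short nothing is read from that. Of the blood and endothelial markers Flt1 was a member, with 98.5% and 97.9%. The 5 genes of histone enzymes and remodellers, Chd5 with Jmjd1c, Smarca2, Hdac11 and Kdm2b, and the Wnt and TGF-beta signalling genes Wnt9b and Tgfbr3 all lay within 10 points. Among them Kdm2b, a histone demethylase, was the 1 gene with an intermediate level, at 44.9% and 48.4%. Zfp521, a zinc finger regulator of stem and progenitor cells, had 96.1% at PND5, 81.9% at R1-8 and 96.0% at R9-12, and Zfp385b and Zfp46 and the odorant receptor gene Or9s23 were within 10 points.

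The 15 regions that were at least 30 points higher at R1-8 had medians of 53.8% at PND5, 89.7% at R1-8 and 76.9% at R9-12. All 15 belonged to the authors' group of late gain, which holds 56.1% of the members. The other 43.9% are in the group of continuous gain, which had already gained by GD20 and gained again to PND5. That leaves them less room for such a rise, so this count is not independent of how the groups were formed. From R1-8 to R9-12, 14 of them lost and 1 gained. Wasf1, a regulator of actin branching, was the highest, with 8.9% at GD20, 44.9% at PND5, 97.0% at R1-8, 81.0% at R9-12, 74.6% at R13-14 and 90.5% at R15-17 in intron 7 (chr20:48458983-48459157). Its level at PND5 lay between the low level of the gonocytes and the high levels of the spermatids.

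Among regions in named genes the next were Ech1, an enzyme of fatty acid oxidation, with 48.5% at PND5 and 87.4% at R1-8 in exon 2, and Gh1, the growth hormone gene, with 53.8% and 91.0% in intron 3. Tcp11l1, a relative of the t-complex protein Tcp11, had 60.1% and 96.2%, and Tle2, a corepressor of the Groucho family, had 57.9% and 92.2%. Rbfox3, the neuronal splicing factor that carries the NeuN epitope, had 54.5% and 87.2%, and Pomc, the precursor of corticotropin and melanocortins, had 60.7% and 91.9%. These genes share no list used here, and all were introns or, for Ech1, an exon. Ndfip2, an adaptor of ubiquitin ligases, was just under the 30-point limit with 51.1% and 81.0%, and it went on to gain, to 93.7% at R9-12.

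By gene part, 693 of the members were intergenic (58.6%; Wilson 95% interval 55.8 to 61.4, counting error only), 367 lay in introns, 54 in exons, 32 in promoters, 20 in 3' UTRs, 14 at transcription ends and 2 in 5' UTRs, in the authors' annotation. Of the 32 promoter regions, 29 were within 10 points, 1 was lower by at least 10 and 2 higher, beside 16.6% and 10.8% of all members. Their median level at PND5 was 94.4%, and of all members at 90% or more at PND5, 92.1% lay within 10 points. A trait of promoters was therefore not told apart from their high level. The lower one was Sostdc1, an inhibitor of BMP and Wnt signalling, with 53.5% at PND5, 27.2% at R1-8, 40.9% at R9-12 and 23.0% at R13-14. The higher ones, Fermt1 and Slc27a4, had 71.0% and 71.9% at PND5 and 95.5% and 96.1% at R1-8.

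Asb18, with 8 CpGs in its promoter window, had 57.5% at PND5, 50.5% at R1-8, 77.9% at R9-12 and 81.0% at R13-14, and Elavl4 had 95.3%, 87.0% and 73.8% at the first 3 of these stages. Ncald, a neuronal calcium sensor, and Smpx, a small muscle protein of the X chromosome, kept 93.4% and 98.2% at R1-8 in their promoters, and Plec, Klhl5, Scgb1c1 and Phyhd1 were higher by 9.2, 6.0, 4.6 and 3.4 points. At transcription ends 2 of 14 regions, those of Slc38a1 and Slc15a5, were lower by at least 30 points and 6 of 14 by at least 10, beside 3.81% and 16.6% of all members.

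The large differences sat in short regions with few CpGs. Of the 428 regions with 5 or 6 CpGs, 26 were lower by at least 30 points (6.07%), of the 407 with 7 to 9 CpGs 15 were (3.69%), and of the 347 with 10 or more 4 were (1.15%). All 14 regions lower by at least 50 points had fewer than 10 CpGs. The median CpG number was 6 in the class lower by at least 30 points and 8 in the class within 10 points, while the CpG density was 3.24 and 2.49 per 100 bases. A mean over few CpGs rests on fewer measurements and varies more, and the part of this in the differences was not tested.

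In 27 pairs of members less than 10 kb apart, the differences of the 2 regions lay a median of 9.0 points from each other. No such value for pairs farther apart is given here. In 9 pairs a region was lower by at least 10 points. In 4 of these the other was lower by any amount, beside 45.9% of all members. In 2 of the 9 the other was also lower by at least 10 points, beside 16.6% of all members. These were in Adgrl2 and in an intergenic pair on chromosome 11. Adgrl2, a latrophilin adhesion receptor, had 63.7% and 56.1% at PND5 and 29.7% and 33.9% at R1-8 in a pair of regions of intron 1, and at R13-14 they had 29.7% and 30.6%. Its region in intron 2 had 93.8% and 96.5%, so it kept its level. In none of the 5 pairs with a region higher by at least 10 points were both higher by that much, beside 10.8% of all members. In 2 of the 5 the other region was lower by at least 10 points, and in the rest it was higher by 9.0, 3.9 and 0.9 points. With so few pairs nothing is read from these counts.

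Of the other genes with 3 member regions, Sim2, Mylk and Zmynd8 held all 3 within 10 points and above 90% at both stages. Sim2 is a transcription factor of the midline, Mylk a myosin light chain kinase and Zmynd8 a chromatin reader. Tenm2, a teneurin of synaptic adhesion, had all 3 regions lower by at least 10 points, all in intron 3, with 45.0%, 96.2% and 42.9% at PND5 and 29.1%, 85.3% and 32.7% at R1-8. Mbp, the myelin basic protein gene, had 1 region higher, with 73.3% and 92.8%, 1 lower, with 76.4% and 64.6%, and 1 near complete methylation, with 98.5% at R1-8.

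Levels at R13-14, from samples that took no part in the choice of members, were listed for 649 members. A region has such a level only where it was listed as different from R9-12 or from R15-17. The differences from PND5 at R1-8 and at R13-14 subtract the same PND5 level, so they are not independent. Of the 26 low-class regions with a level, 18 were also at least 30 points lower than PND5 at R13-14, beside 31 of all 649 (4.78%), and their medians were 74.0% at PND5, 25% at R1-8, 43.8% at R9-12 and 27.6% at R13-14. Of the 7 high-class regions with a level, 3 were at least 30 points higher than PND5 at R13-14, beside 5 of all 649 (0.77%), and their medians were 48.5% at PND5, 89.0% at R1-8 and 78.5% at R13-14. The level at R13-14 was within 10 points of that at R1-8 in 534 of the 649 regions and within 10 points of PND5 in 449.

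**Figure D5:**
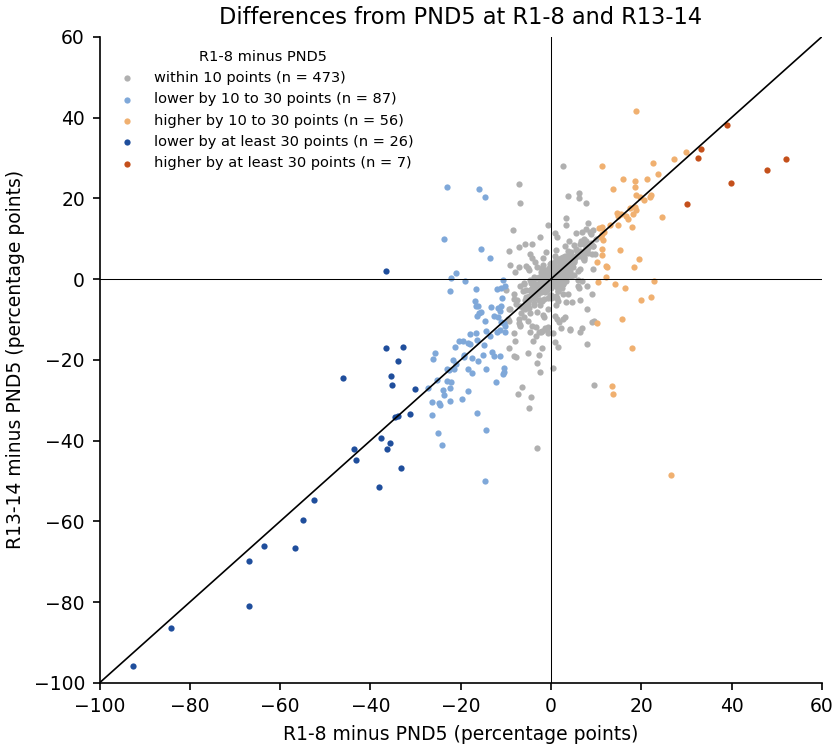
Difference from the PND5 level at R1-8 (x axis, percentage points) and at R13-14 (y axis, percentage points) for the 649 members with a level at R13-14, 1 point per region, with the line of equal differences. The 26 regions in the darkest blue lie left of -30 points, and 18 of them lie below -30 points on the y axis too; both axes subtract the same PND5 level.

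The course from R1-8 turned back at R13-14 in nearly every region listed at that step. Among the 565 members in the R9-12 to R13-14 list, 403 first lost and then gained and 154 first gained and then lost, while 3 gained at both steps and 5 lost at both. The R9-12 level enters both steps, so they are not independent. Lmx1b, a transcription factor of limb and dopamine neuron development, was the 1 member listed at 6 steps, with 36.0% at GD20, 92.3% at PND5, 95% at R1-8, 81.0% at R9-12, 95.8% at R13-14, 81.3% at R15-17 and 93.8% in spermatozoa in intron 2. From R1-8 on its levels alternated, while PND5, R1-8, R13-14 and spermatozoa lay close together.

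The largest gain from R1-8 to R9-12 among named genes was in Loxhd1, a gene of inner ear hair cells, with 58.4% at PND5, 51.3% at R1-8, 90.7% at R9-12 and 61.5% at R13-14. Shroom3, an actin-binding regulator of cell shape, had 37.3%, 51.9% and 85.4% at the first 3 of these stages in intron 9, and Padi2, a peptidylarginine deiminase, had 52.8%, 28.8% and 59.8% with 25.3% at R13-14. The largest losses were in Crb1, a polarity gene of the retina, with 62.8%, 76.9%, 37.9% and 61.5%, and in Sall1, a zinc finger gene of kidney development, with 65.2%, 77.7% and 40.6%. In Loxhd1, Padi2 and Crb1 the R9-12 level stood away from the levels on either side of it. The distance from R1-8 follows from how these genes were picked. A turn back at R13-14 was found in nearly every member listed at that step.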

How the data were processed

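Per the submitters' processing notes, reads were handled with Bowtie2 and Bismark 0.19.0. Neither the genome build nor a minimum of coverage is named in the sources used here, nor how a stage mean was formed from its samples. The deposited lists give, per the file headers, each region's mean methylation level at 2 stages as a fraction, printed here as a percentage, its number of CpGs as a count, the difference of the means as a score, and the p-value and adjusted p-value of the authors' test. The authors' annotation sheets start 1 base later than the lists and were shifted by 1 before joining.

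Members were matched on identical chromosome, start and end, with further stages filled in where a region stood in another list, in Python 3.11.15 with pandas 2.3.3. The matching was tested on simulated data. Gene symbols came from RefSeq accessions; 460 of 489 regions annotated to a gene had one, and 416 genes were named. No test was made, since only stage means were used. Named genes were 1 region per gene with at least 5 CpGs: the 10 lowest and 10 highest differences, the 6 lowest and 6 highest promoters, the 5 largest gains and losses from R1-8 to R9-12, up to 4 genes of each of 20 lists, the 5 listed at most steps, and genes with 3 or more regions; further genes were named after their values were seen. Members and lists were chosen with earlier results of these data known. Alternatives changed the matching, CpG number, adjusted p-value, step size, length, chromosomes, neighbours and direction. The values of some named genes are not reported here.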

Additional observations from a re-analysis of the deposited data

How the results depend on the processing

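The 1182 shared regions became 347 with at least 10 CpGs, 745 with an adjusted p-value of at most 0.01 in both of the authors' lists, 147 with a step of at least 20 points between R1-8 and R9-12, and 339 when only gains and 843 when only losses at that step were kept. The 45 regions lower by at least 30 points became 4, 23 and 11 under the first 3 of these settings, 4 with losses alone, 93 with a limit of 20 points and 14 with a limit of 50. The median difference of 0.55 points became -4.3 with a step of 20 points, -10.0 with gains alone and 1.7 with losses alone, so its sign depends on the step that chose the regions. The median R1-8 level of 91.8% became 87.5% with 10 CpGs, 93.7% with the stricter adjusted p-value, 66.5% with a step of 20 points, 55.5% with gains and 95.7% with losses. The median R9-12 minus PND5 difference of -9.5 points became 5.7 with gains and -11.3 with losses. The share of regions in genes of 41.4% became 48.3% among regions in both a fetal group and a spermatid cluster. The other values kept their direction, and the other counts lay within 1.5 times the first; matching by overlap added 3 regions, with differences of -20.4, -18.3 and -10.3 points. On the lower side the members nearest the 30-point limit were intergenic, at -30.1 points inside it and -29.9 outside. No paired analysis was possible because only stage means were used, and for the same reason no sample could be left out. Depth behind the levels is unknown, so it is not known which differences it could blur.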

Other observations

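On the X chromosome 13 regions were members, 0 of them lower by at least 30 points, beside 3.81% of all members, and with so few regions nothing is read from the count. Pdha1, a subunit of pyruvate dehydrogenase, had 64.8% at PND5, 42.3% at R1-8 and 64.0% at R9-12 in its 3' UTR. Both regions of Smpx were close to full methylation at both stages.

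Only 5 members were also in the list from GD16 to GD18. Tenm4, a teneurin, had 9.2% at GD20, 40.5% at PND5, 52.7% at R1-8, 76.5% at R9-12 and 43.7% at R13-14. An intergenic region on chromosome 20 among them, at chr20:49400989-49401082, was higher by at least 30 points, with 38.5% at PND5 and 71.0% at R1-8, and was the 1 region of that class to gain to R9-12, to 89.2%.

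A region has a level in spermatozoa only where it was listed as different from R15-17. This held for 117 members, whose median at PND5 was 63.7%, against 89.7% over all 1182. Of the 117, 8 were of the class lower by at least 30 points at R1-8. Their medians were 63.8% at PND5, 32.3% at R1-8 and 42.2% in spermatozoa, against 63.7%, 63.9% and 65.7% over the 117. Among them Rpl37l1 had 63.0% in spermatozoa, and Spsb4, a substrate receptor of a ubiquitin ligase, had 50.1% at PND5, 17.4% at R1-8 and 22.9% in spermatozoa.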
